A study of Mus musculus with 48 samples.

Results

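Primary cultures of mouse striatal neurons were exposed for 4 h to 100 nM dexamethasone, a synthetic agonist of the glucocorticoid receptor, and the mRNA of 3 treated cultures was compared with that of 3 vehicle cultures. The comparison was built from the arrays numbered 1, 2 and 4 of each group, 6 of the 48 arrays of the series. The arrays vehicle 3 and dexamethasone 3 were left out because their glucocorticoid-responsive transcripts went against their labels. The choice therefore rests on measured values, and the result under all labels as given stands beside it. The series holds 12 groups of 4 arrays, in which neurons and astrocytes received vehicle, dexamethasone, or aldosterone, progesterone, dihydrotestosterone or estradiol at 200 nM. All groups come from C57Bl/6J mice, and the numbered arrays of a group are described as independent biological replicates. The neurons were taken from embryos late in gestation and grown in Neurobasal medium, which carried no supplement during the last day. The astrocytes were selected from the brains of young pups by the surface protein GLAST and cultured. Staining for neuronal and astroglial proteins found the neuron cultures to be mostly, but not only, neurons. The arrays read 46174 probes in total RNA. Levels are given as log2 intensity, as normalized and deposited by the authors, between 6.02 and 16.65. Of the probes, 61.1% had a mean under 7.5, close to background. Pairs of the 6 arrays correlated across probes at r of 0.992 to 0.996.

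Glucocorticoids enter the cell and bind the glucocorticoid receptor (encoded by Nr3c1), a transcription factor that is held inactive in the cytoplasm by chaperones. The bound receptor moves to the nucleus, attaches to glucocorticoid response elements and raises the transcription of nearby genes, among them several that dampen the signal itself. It also lowers inflammatory transcripts, in part by interfering with other transcription factors. In the brain, both neurons and glia carry the receptor, and astrocytes are known to respond to it with changes in metabolic and transport genes.

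The arrays numbered 3 stood apart from their groups. Over the 78 probes that rose with dexamethasone in the other arrays, the mean log2 level was 9.18, 9.17 and 9.16 in vehicle 1, 2 and 4 and 9.989, 9.975 and 9.999 in dexamethasone 1, 2 and 4. It was 10.03 in vehicle 3, among the dexamethasone arrays, and 9.43 in dexamethasone 3. The value of dexamethasone 3 was not that of the vehicle arrays. It lay with aldosterone 1, 2 and 4, at 9.42, 9.37 and 9.43, while aldosterone 3, at 9.17, lay with vehicle 1, 2 and 4. The same order was seen over the 22 probes that fell, where the mean was 10.08, 10.07 and 10.04 in vehicle 1, 2 and 4 and 9.49, 9.42 and 9.38 in dexamethasone 1, 2 and 4. It was 9.38 in vehicle 3, 9.79 in dexamethasone 3 and 9.95 in aldosterone 3, beside 9.82, 9.78 and 9.75 in aldosterone 1, 2 and 4. For progesterone, dihydrotestosterone and estradiol, all means over the rising probes fell between 9.14 and 9.26. Probe by probe, vehicle 3 was above dexamethasone 3 for 76 of the 78 rises, which was so for 51.5% of all probes, and below it for 21 of the 22 falls, against 46.5%. Values of this kind were the reason for leaving these arrays out, so the means and counts describe the choice and do not test it. When the non-normalized table was matched to the samples by value, the 6 treatments held the same positions on every one of 8 chips. Vehicle was at position 1, dexamethasone at 2 and aldosterone at 3, so effects of treatment and of position cannot be told apart. Each chip held 1 number of 1 cell type, so the number is also the chip. The number 3 neuron arrays lay at the positions of their titled treatments. The array identifiers in the labels fit for only 1 of 48 arrays, so the match does not verify the labels. Whether tubes, labels or cultures were interchanged was not tested, no array was given another label, and all neuron arrays numbered 3 stayed out of the comparison.

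**Figure D1:**
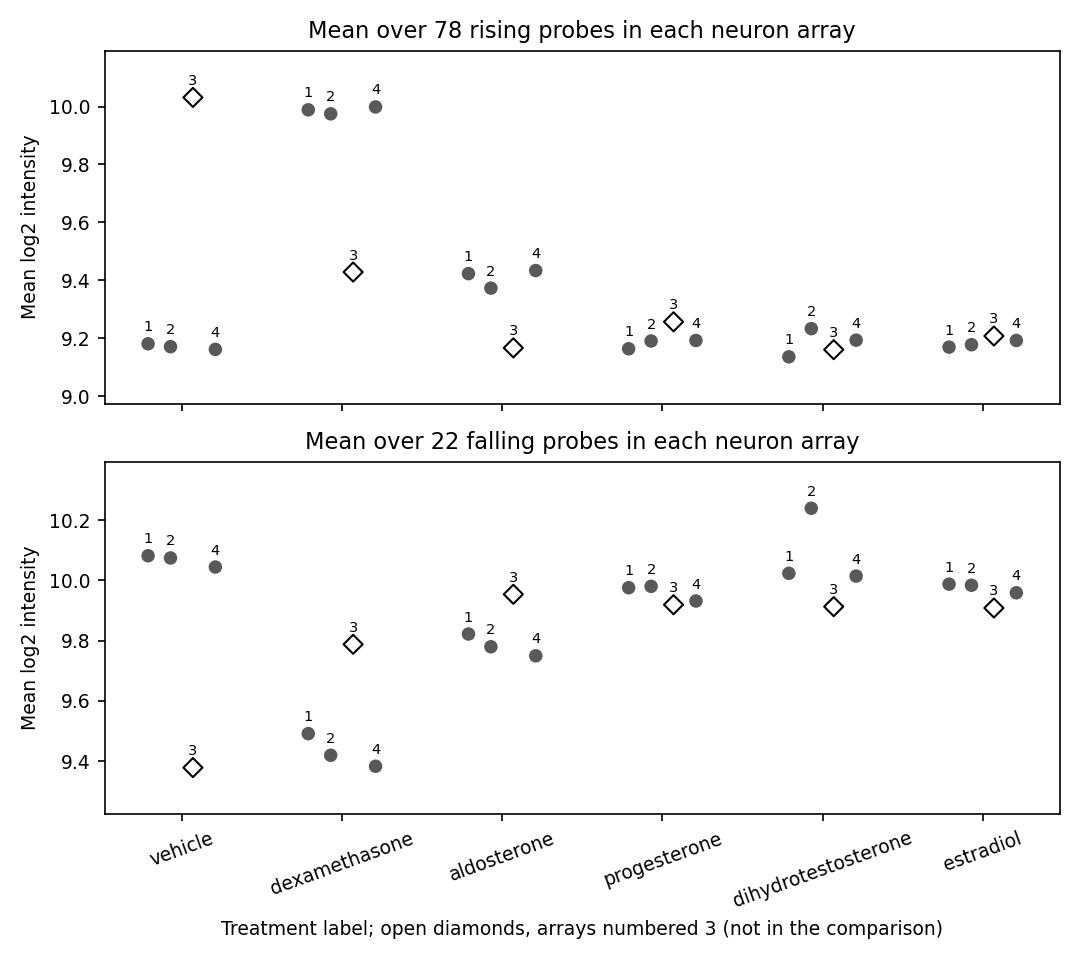
Mean log2 intensity (y axis) over the 78 rising probes (top) and the 22 falling probes (bottom) in each of the 24 neuron arrays, by treatment label (x axis). Filled circles are arrays 1, 2 and 4 and open diamonds are arrays 3. Over the rising probes, vehicle 3 (10.03) lies with the dexamethasone arrays, dexamethasone 3 (9.43) with the aldosterone arrays and aldosterone 3 (9.17) with the vehicle arrays.

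Dexamethasone changed 100 probes in neurons at a false discovery rate (FDR) of 0.01, which is 0.217% of those tested. Of these, 78 rose (0.169% of all probes, from 54 named genes) and 22 fell (0.0476%, from 19 named genes). The rises were mostly of moderate size, with a median log2 fold change of 0.66 and a range of 0.49 to 3.06, and 12 reached 1 or more. The falls had a median of -0.60 and ran from -1.16 to -0.46. The largest rises were those of Fam107a, Pdk4, Sult1a1 and Gjb6, and the largest falls those of Ccl4 and Plau. For 77 of the 78 rises and all 22 falls the 3 dexamethasone arrays lay wholly on 1 side of the 3 vehicle arrays, which over all probes was so for 3.85% above and 4.21% below. The probes were called on these same arrays, so this separation follows largely from the call and does not test it. By 1 probe a gene, 52 of 20250 genes rose (0.257%) and 19 fell (0.0938%). The comparison was made in limma with the 18 neuron arrays numbered 1, 2 and 4 and the number as a block, since arrays of 1 number deviated together. At FDR 0.2, 153 probes rose (0.331%) and 131 fell (0.284%). Without the block 42 rose and 9 fell, and without number 4 in all groups 32 rose and 6 fell. With all 24 neuron arrays under the labels as given, no probe passed FDR 0.01 in limma, 14 passed FDR 0.2 and 3206 had an unadjusted p under 0.05.

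The largest rises stood far outside the spread between arrays. Fam107a, which encodes an actin-associated protein induced by stress, stood at 7.96, 7.85 and 7.89 (log2 level) in vehicle 1, 2 and 4 and at 10.91, 10.86 and 11.11 in dexamethasone 1, 2 and 4. The groups were far apart, and the rise was 3.06 ± 0.10 on the log2 scale (± SE, here and below for 3 against 3 arrays, adjusted p = 8.13e-20 in limma). Pdk4, a kinase that turns off pyruvate dehydrogenase and so spares glucose, stood at 9.12, 8.85 and 8.95 with vehicle and at 11.88, 11.70 and 11.49 with dexamethasone. The rise was 2.72 ± 0.10 (adjusted p = 9.76e-18 in limma). Sult1a1, a sulfotransferase of phenolic compounds, was near background with vehicle, at 7.03, 7.09 and 6.93, and reached 9.43, 8.94 and 9.41 with dexamethasone. Gjb6, the gap junction protein connexin 30 of astrocytes, was likewise near background at 6.99, 6.86 and 6.74 and reached 9.31, 8.76 and 8.86. These rises were 2.24 ± 0.10 and 2.11 ± 0.10 (both adjusted p = 1.31e-15).

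**Figure D2:**
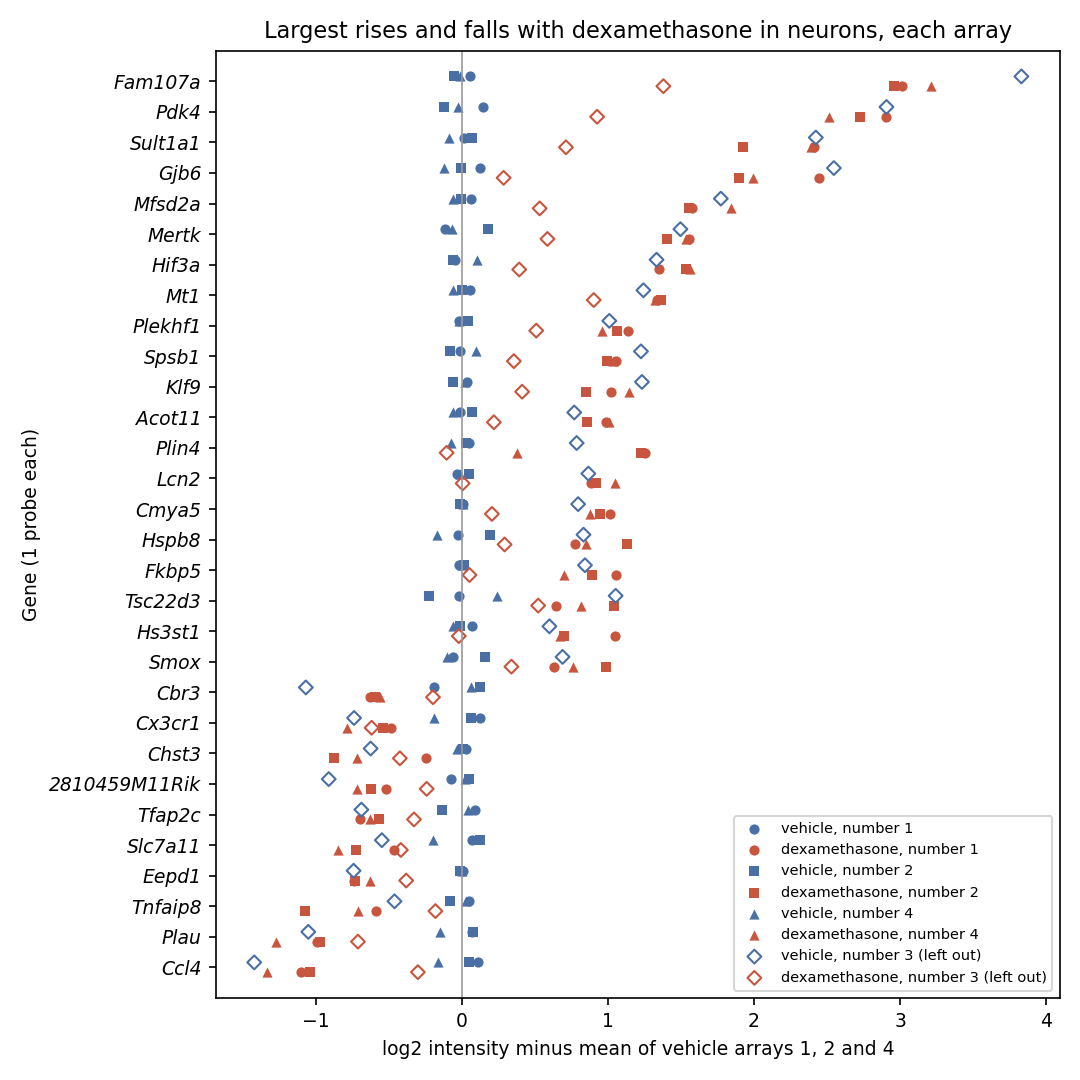
Log2 intensity of each array minus the mean of vehicle arrays 1, 2 and 4 (x axis) for the 20 largest rises and 10 largest falls (y axis, 1 probe a gene). Blue marks are vehicle arrays, red marks dexamethasone arrays, and open diamonds the arrays numbered 3, which had no part in the comparison. For Fam107a the mean of the dexamethasone arrays lies 3.06 above that of vehicle, with vehicle 3 above the treated arrays and dexamethasone 3 between the groups.

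Promoters of the rising genes were searched for the core of the receptor's palindromic response element, ACANNNTGT, in the 250 bases before each RefSeq start (GRCm38.p6). The motif equals its own reverse complement, so a match holds for both strands, and the longer element has AGA before and TCT after it. Of the 54 named genes that rose, 49 had a promoter in the table, and 3 of them held the core (6.12%), against 1828 of 27025 genes (6.76%). The longer element was in none of the 49 and in 3 of all 27025 genes (0.0111%), and neither was in the promoters of 13 of the 19 genes that fell. The core was thus no more frequent near these starts than in the table at large, and a match is a stretch of letters and no measured binding site. The 3 promoters are shown because they are all those with a match, and Fam107a had the largest rise. The capitals mark the core. The sequence of Fam107a lies at chr14:8309780-8310029 on the minus strand with its match beginning 116 bases before the start (a second start 2 bases away shares it), that of Mt1 at chr8:94178839-94179088 on the plus strand with its match 92 bases before, and that of Lcn2 at chr2:32387740-32387989 on the minus strand with its match 152 bases before.
Fam107a: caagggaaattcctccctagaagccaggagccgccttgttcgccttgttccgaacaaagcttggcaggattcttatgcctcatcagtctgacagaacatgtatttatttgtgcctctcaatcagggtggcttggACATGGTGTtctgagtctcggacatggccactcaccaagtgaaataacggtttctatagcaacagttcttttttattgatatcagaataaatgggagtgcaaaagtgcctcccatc
Mt1: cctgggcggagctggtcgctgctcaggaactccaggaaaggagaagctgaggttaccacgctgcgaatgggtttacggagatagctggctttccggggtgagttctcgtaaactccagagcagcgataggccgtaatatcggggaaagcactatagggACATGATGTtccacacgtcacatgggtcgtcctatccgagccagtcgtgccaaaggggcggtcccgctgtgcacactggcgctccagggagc
Lcn2: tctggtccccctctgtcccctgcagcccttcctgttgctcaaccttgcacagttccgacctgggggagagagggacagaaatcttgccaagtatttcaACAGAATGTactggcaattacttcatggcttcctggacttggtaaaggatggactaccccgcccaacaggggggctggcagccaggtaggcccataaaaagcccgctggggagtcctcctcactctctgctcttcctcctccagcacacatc

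A list of 40 genes known as glucocorticoid receptor targets had 39 measured members, of which 18 rose, none fell and 21 did not pass the test. By 1 probe a gene, 0.257% of all genes rose and 0.0938% fell, which is the background for this list and for those below. The list was drawn up with earlier results of these data known, so its count is a description. The median log2 fold change of its members was 0.51, against -0.003 over all probes tested, and 0.36 when a gene was represented by the median of its probes. The receptor's own transcript, Nr3c1, was read at 7.03, 6.91 and 7.01 with vehicle and at 7.16, 6.87 and 7.07 with dexamethasone, close to background in both, and that of the mineralocorticoid receptor Nr3c2 stood at 6.84 with vehicle. Levels this close to background limit what either probe can show.

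Among the genes that dampen glucocorticoid signaling, Fkbp5, a co-chaperone that lowers the receptor's affinity for hormone, stood at 9.78, 9.81 and 9.80 with vehicle and at 10.85, 10.69 and 10.50 with dexamethasone. The vehicle arrays were almost level, and the rise was 0.88 ± 0.10 (adjusted p = 8.37e-07). Tsc22d3, which encodes the leucine zipper protein GILZ, an inhibitor of inflammatory transcription factors, rose by 0.83 ± 0.10 (adjusted p = 1.26e-05), and a second probe by 1.17 (adjusted p = 6.95e-11). Per1, a repressor of the circadian clock with a known glucocorticoid response element, rose by 0.52 ± 0.10 (adjusted p = 0.00427). The call was kept in 7 of 17 alternative analyses that, like the main one, left out vehicle 3 and dexamethasone 3. Another Per1 probe rose by 0.56 (adjusted p = 0.00314 in limma), while a further probe near background had -0.03 and did not pass. Per1 was the only member of 18 clock genes past the threshold, and Dbp, a clock output gene, had -0.45 (adjusted p = 0.014).

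Transcription factors and growth regulators formed a further group. Klf9, a krueppel-like factor known to respond to glucocorticoids in neurons, stood at 11.33, 11.24 and 11.32 with vehicle and at 12.32, 12.15 and 12.44 with dexamethasone, a rise of 1.01 ± 0.10 (adjusted p = 1.93e-07). A second probe rose by 0.95 (adjusted p = 3.14e-08). Bcl6, a transcriptional repressor, rose by 0.53 ± 0.09 (adjusted p = 0.00244, kept in 6 of 17 alternatives), and these were the only 2 of 17 krueppel-like and zinc finger factors past the threshold. The stress-inducible growth arrest genes moved in opposite directions, Gadd45g by 0.51 ± 0.09 (adjusted p = 0.00153) and Gadd45b by -0.48 ± 0.09 (adjusted p = 0.00689). These calls were kept in 7 and 6 of the 17 alternatives. A second probe of Gadd45g rose by 0.69 (adjusted p = 0.000181 in limma), while that of Gadd45b, near background, had 0.10 and did not pass. Spsb1, an adaptor of ubiquitin ligases, rose by 1.03 ± 0.09 and Plekhf1, a lipid-binding protein of endosomes, by 1.05 ± 0.09.

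Metallothioneins are small proteins that bind zinc and copper. Mt1 stood at 15.16, 15.11 and 15.05 with vehicle and at 16.44, 16.47 and 16.43 with dexamethasone, a rise of 1.34 ± 0.13 (adjusted p = 1.13e-07). The treated arrays were near 16.65, the highest value of the data. Mt2 rose by 0.57 ± 0.11 (adjusted p = 0.00516), a call kept in only 5 of 17 alternatives, and Mt3, the form typical of brain, had 0.37 ± 0.11 (adjusted p = 0.23). None of the other members of the metal homeostasis list, zinc transporters and the metal-sensing factor Mtf1 among them, passed the threshold (2 of 13 rose and none fell).

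Genes of lipid and energy metabolism rose in 4 of 25 measured cases and fell in none. Besides Pdk4, Mfsd2a, which carries lysophospholipids across membranes, stood at 10.09, 10.02 and 9.97 with vehicle and at 11.60, 11.58 and 11.87 with dexamethasone, a rise of 1.66 ± 0.11 (adjusted p = 4.33e-12). Plin4, a coat protein of lipid droplets, stood at 6.99, 6.97 and 6.87 with vehicle and at 8.20, 8.17 and 7.32 with dexamethasone, so that 1 treated array was well below the other 2. Its rise was 0.95 ± 0.12 (adjusted p = 2.16e-05). Acsl3, which activates fatty acids, rose by 0.54 ± 0.10 (adjusted p = 0.00232, kept in 7 of 17 alternatives), while the glucose transporter Slc2a1 had 0.01 (adjusted p = 0.99). Outside the list, Acot11, a thioesterase of fatty acyl-CoA, rose by 0.95 ± 0.09 and Smox, which oxidizes the polyamine spermine, by 0.79 ± 0.09, the latter with all 5 of its probes past the threshold.

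A probe assigned to Hif3a, whose product can oppose hypoxia-inducible factors, rose from 8.25, 8.24 and 8.40 to 9.65, 9.83 and 9.86, by 1.48 ± 0.09 (adjusted p = 2.01e-12). It was designed on a splice form of the gene, 2 other Hif3a probes were near background with changes of 0.003 and 0.05, and no other of the 19 hypoxia genes passed the threshold. Mertk, a receptor tyrosine kinase by which phagocytes clear dying cells, rose from 8.54, 8.83 and 8.59 to 10.21, 10.06 and 10.19, by 1.5 ± 0.12 (adjusted p = 6.43e-10). Lcn2, a secreted iron-carrying lipocalin of reactive glia, rose by 0.95 ± 0.11 from background. Hspb8, a small heat shock protein, rose by 0.92 ± 0.12 and Sesn1, an inhibitor of mTOR signaling, by 0.55 ± 0.10 (kept in 8 of 17 alternatives), the only one of 19 insulin, FoxO and mTOR genes past the threshold.

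Several known targets did not pass the threshold in neurons. Sgk1, a kinase that regulates ion channels, had 0.20 ± 0.09 (adjusted p = 0.79), Zbtb16 0.13 ± 0.09 (adjusted p = 0.94), Errfi1 0.18 ± 0.09 (adjusted p = 0.86) and the phosphatase gene Dusp1 -0.03 ± 0.09 (adjusted p = 0.99). Nfkbia, which encodes the NF-kB inhibitor, had 0.60 ± 0.12 (adjusted p = 0.014) and the cell cycle inhibitor Cdkn1a 0.38 ± 0.08 (adjusted p = 0.025), both with all treated arrays above all vehicle arrays. A p that misses the threshold does not show that these genes were unchanged.

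The falls included a few transcripts of the innate immune system. Of 23 measured cytokines and chemokines 1 fell and none rose, with a list median of -0.01, and Il1b, Tnf and Cxcl10 had 0.05, -0.05 and -0.03. Il1b, Tnf and Cxcl10 were near background with vehicle (means of 6.85, 6.86 and 6.81), and 16 of the 23 were under 7.5 in both neuron groups. A fall of such genes could hardly be seen. Ccl4, a chemokine made by activated microglia, stood at 11.19, 11.13 and 10.92 with vehicle and at 9.98, 10.04 and 9.75 with dexamethasone, a change of -1.16 ± 0.21 (adjusted p = 0.00232). A second Ccl4 probe, at a mean of 9.14 with vehicle, had -0.93 and did not pass (adjusted p = 0.0634 in limma). Ccl3, a neighbour of Ccl4 in the chemokine family, had -1.04 ± 0.23 (adjusted p = 0.0295). The shared spread of both includes dihydrotestosterone 2, which stood at 12.70 and 12.02, above every other neuron array, and with the 6 arrays alone the adjusted p was 6.29e-07 and 3.2e-06. With an intensity trend and robust prior it was 0.44 for Ccl4, 0.698 for Ccl3 and 0.275 for Plau. The call of Ccl4 was lost without dexamethasone 2 or 4 or vehicle 1 or 4, at adjusted p of 0.0183 to 0.068. Plau, the urokinase plasminogen activator, changed by -1.08 ± 0.18 (adjusted p = 0.000823), and the microglial chemokine receptor Cx3cr1 by -0.60 ± 0.11 (adjusted p = 0.00561). Irf1, a transcription factor of the interferon response, changed by -0.52 ± 0.09 (adjusted p = 0.00272). It was the only one of 21 interferon genes past the threshold. All treated arrays lay below all vehicle arrays for 7 of the 21, against 4.21% of all probes, with a list median of -0.13. In both neuron groups 11 of the 21 were under 7.5, close to background. None of 26 toll-like receptor and NF-kB genes and none of 21 immediate early genes passed in limma. Calls of Ccl4, Plau, Cx3cr1 and Irf1 were lost without the block, at adjusted p of 0.13, 0.0366, 0.287 and 0.0217, and were kept in 8, 9, 7 and 8 of the 17 alternatives.

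Further falls came from genes of other functions. Tnfaip8, a regulator of cell death, changed by -0.79 ± 0.11 (adjusted p = 5.33e-05), and Eepd1, a nuclease-related protein, by -0.70 ± 0.09 (adjusted p = 3.67e-05). Slc7a11, the cystine-glutamate exchanger that supplies cystine for glutathione, stood at 9.18, 9.23 and 8.91 with vehicle and at 8.64, 8.38 and 8.26 with dexamethasone, a change of -0.68 ± 0.09 (adjusted p = 7.13e-05), while its 4 other probes were near background. It was the only gene of 16 in the list of glutamate and GABA handling to pass. The transcription factor Tfap2c, the chondroitin sulfotransferase Chst3, the carbonyl reductase Cbr3 and 2810459M11Rik changed by -0.59 to -0.63, and the calls of Tfap2c, Chst3 and Cbr3 were kept in 10, 9 and 10 of the 17 alternatives. Second probes of Chst3 and Cbr3 had -0.65 and -0.50 (adjusted p = 8.84e-05 and 0.00748 in limma). The other Tfap2c probes, with -0.28 and -0.16, did not pass.

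**Figure D3:**
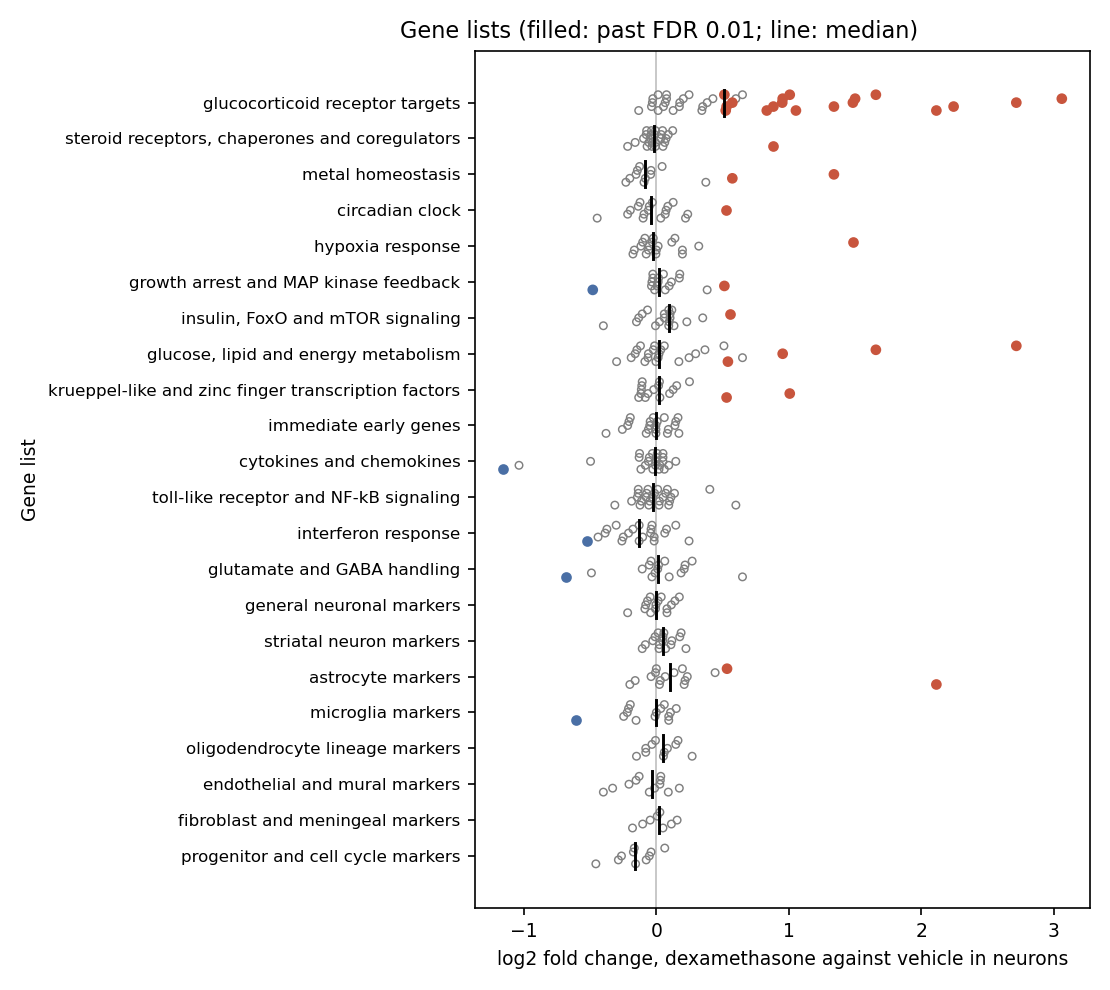
Log2 fold change with dexamethasone in neurons (x axis) of each measured member of 14 pathway lists and 8 cell type marker lists (y axis). Filled red and blue points passed FDR 0.01 as rises and falls, open points did not pass, and the black lines are list medians. The glucocorticoid receptor targets have a median of 0.51 and the other medians lie between -0.16 and 0.10.

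The cultures carried the mRNA of neurons and also that of glia. General neuronal markers had a mean log2 level of 12.29 to 12.53 in the 3 vehicle arrays and 12.29 to 12.47 in the 3 dexamethasone arrays, against 8.77 in vehicle astrocytes. Striatal markers stood at 10.49 to 10.52 and 10.51 to 10.60, and the dopamine receptors Drd1 and Drd2 at 8.57 and 8.18 with vehicle. No member of either list passed the threshold (15 and 16 measured). The 16 astrocyte markers had a mean of 10.25 to 10.31 with vehicle and 10.50 to 10.56 with dexamethasone, against 11.97 in vehicle astrocytes, and 12 of them were at 7.5 or more in the vehicle neurons. The astrocyte proteins Gfap and Aqp4 were read at 11.7 and 11.5, against 16.4 and 15.4 in astrocytes. Of the 16, Gjb6 and the glycolytic enzyme Aldoc (0.53, adjusted p = 0.00232) rose and none fell. The 14 microglial markers had a mean of 8.60 to 8.77 with vehicle and 8.54 to 8.65 with dexamethasone, against 11.65 in astrocyte cultures, with 10 of them at 7.5 or more, Trem2 at 10.6 and C1qc at 10.4. Cx3cr1 alone passed. The other 4 marker lists had no member past the threshold in limma. Among them, the 10 progenitor and cell cycle markers had a mean of 9.18 to 9.21 with vehicle and 8.98 to 9.12 with dexamethasone, with a list median of -0.16. In such mixed RNA, fewer cells of a type and less RNA per cell cannot be told apart, and the share of the response that came from glia in the neuron cultures was not tested.

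Astrocytes, compared in the same way on 4 arrays against 4, gave a test of how the effect differed. Of the 78 probes that rose in neurons, 66 also rose in astrocytes (84.6%, where 2.22% of all probes rose), none fell and 12 did not pass. These 66 were 6.45% of the 1023 probes that rose in astrocytes. Of the 22 that fell, 12 fell in astrocytes (54.5%, against 2.06% of all probes), 1 rose and 9 did not pass. The 2 comparisons share no array. The difference between the effects was itself tested over 42 arrays. It was more positive in astrocytes for 37 of the 78 rises (0.996% of all probes), more positive in neurons for 6 (0.587%) and did not pass for 35. Fkbp5 had 4.60 ± 0.09 in astrocytes against 0.88 ± 0.10 (difference 3.72 ± 0.14, adjusted p = 1.17e-25). Tsc22d3 had 3.76 against 0.83 (difference 2.93 ± 0.16) and Plin4 3.74 against 0.95 (difference 2.79 ± 0.16). Plin4 was near background in vehicle neurons (mean 6.94), so its neuron fold is a lower limit and its difference is not exact. Fam107a, by contrast, had 2.75 ± 0.11 in astrocytes against 3.06 ± 0.10, a difference of -0.31 ± 0.15 that did not pass (adjusted p = 0.44), and Mfsd2a and Mertk had differences of 0.07 ± 0.15 and 0.01 ± 0.14.

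**Figure D4:**
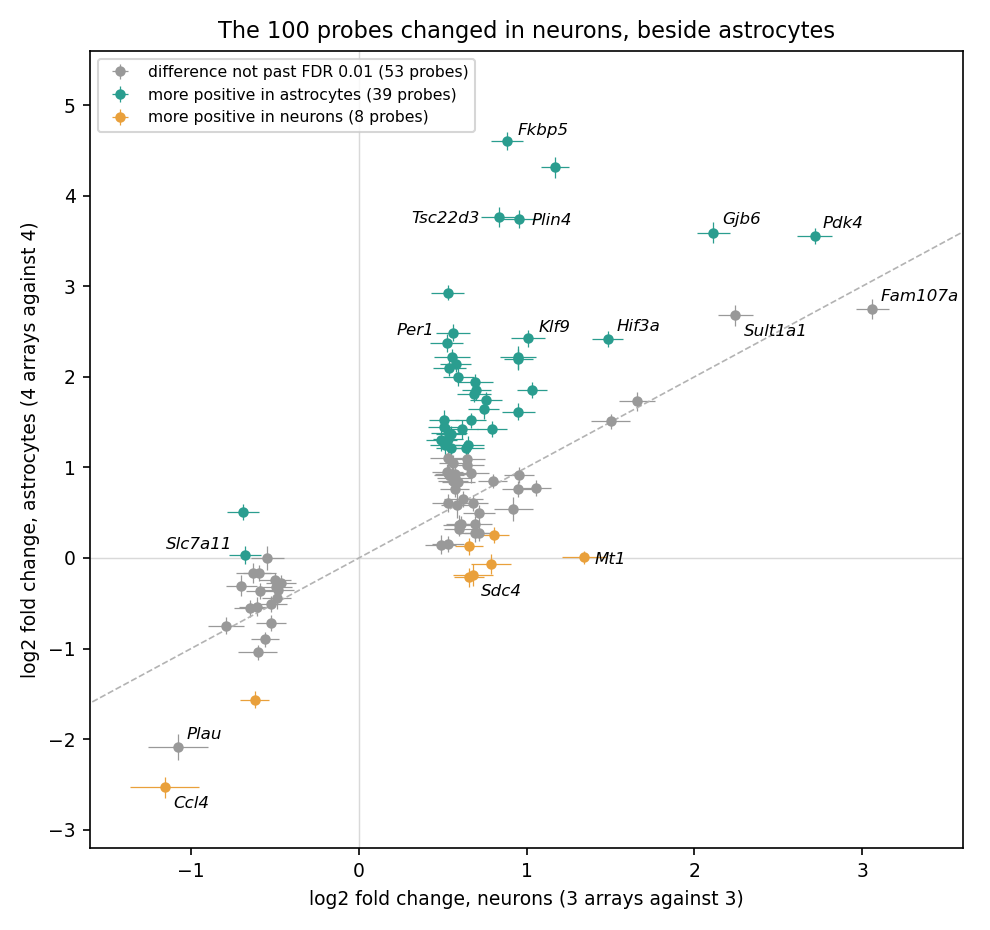
Log2 fold change in astrocytes (y axis, 4 arrays against 4) against that in neurons (x axis, 3 against 3) for the 100 probes that changed in neurons, with standard errors. The dashed line marks equal effects. The difference passed FDR 0.01 as more positive in astrocytes for 39 probes and in neurons for 8, and did not pass for 53.

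A few transcripts rose in neurons with no matching rise in astrocytes. Thrsp, a regulator of lipid synthesis, had 0.79 ± 0.12 in neurons and -0.07 in astrocytes (difference -0.86, adjusted p = 0.000838). Sdc4, a cell surface proteoglycan, had 0.68 against -0.18 (adjusted p = 0.0016), Cgnl1, a junction protein, 0.66 against -0.21 (adjusted p = 6.72e-05), and Hs3st1, a heparan sulfotransferase, 0.81 against 0.25 (adjusted p = 0.0025). A probe of the potassium channel subunit Kcng2 had 0.66 against 0.13 (adjusted p = 0.0086). Mt1 had 1.34 against 0.01, but its astrocyte arrays stood at 16.57 to 16.65 with vehicle, the highest values of the data. Among the falls, Slc7a11 had -0.68 in neurons and 0.04 in astrocytes (difference 0.71 ± 0.14, adjusted p = 0.000874). Thrsp, Sdc4, Cgnl1 and Kcng2 were singled out after their values were seen.

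Most of the changed transcripts were more abundant in astrocyte cultures. Each chip held 1 cell type, so differences in level between cell types cannot be told apart from differences between chips. The level in vehicle astrocytes exceeded that in the neuron arrays of the other 4 steroids for 63 of the 78 rising probes and 17 of the 22 falling probes, against 49.6% of all probes, with a median difference of 1.27 and 2.10 (log2). For the 66 probes that rose in both, the gain in linear intensity in neurons was 14.7% of that in astrocytes at the median (quartiles 7.78% and 22.8%, range 0.607% to 426%). Hif3a and 1700019D03Rik, an uncharacterized transcript, were at the upper end, with gains of 105% and 426% of the astrocyte gain.

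The neuron arrays of the other 4 steroids, numbers 1, 2 and 4, gave a further background. In 66 of the 78 rises every dexamethasone array lay above all 12 of them, which was so for 0.373% of all probes, and in 15 of the 22 falls below all 12, against 0.191%. The probes were called on these same dexamethasone arrays, in a fit that also held the 12. The counts therefore describe the calls and do not test them. Against the same vehicle arrays, aldosterone changed 4 probes at FDR 0.01, those of Fam107a, Pdk4, Sult1a1 and Mt1. Their log2 fold changes with aldosterone were 1.17, 1.18, 0.88 and 0.84, beside 3.06, 2.72, 2.24 and 1.34 with dexamethasone, at different doses and with shared controls. Progesterone, dihydrotestosterone and estradiol changed no probe at FDR 0.01 in limma (2318, 2693 and 2628 had an unadjusted p under 0.05, where 2308.7 of 46174 would by chance). Mt1 was also at 15.88 to 15.90 in progesterone 1 and estradiol 1, between the vehicle and the dexamethasone arrays.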

How the data were processed

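Total RNA of mouse striatal cultures was read on Illumina arrays. The authors deposited log2 values, made per their methods by array quality checks, subtraction of background, quantile normalization and then the log2 step. They were used with no filter. A second deposited table of non-normalized log2 values was matched to the samples by value (best r at least 0.984, next at most 0.946), since its identifiers fit the labels for 1 of 48 arrays. It served for chip positions alone. Gene symbols came from the platform annotation, updated through gene identifiers, accessions or synonyms: 35725 probes have 1 symbol (20250 symbols) and 10449 none. A gene is represented by its probe of highest mean.

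Group means and the replicate number as a block were fitted with limma 3.58.1 in R 4.3.3 (10 residual and 19.8 prior degrees of freedom), with Benjamini-Hochberg adjustment over all probes. Numbers pair the arrays: deviations from group means correlated at 0.53, 0.22 and 0.49 between dexamethasone and vehicle 1, 2 and 4 (threshold 0.1). The median was -0.21 for 90 pairs of unlike number. Deviations within a group cancel, so positive values at like numbers force negative ones at unlike numbers. That median is thus no separate contrast. Named genes are the 20 largest rises and 10 largest falls without overlap between groups, list members past FDR 0.01 and genes the study names. Members and lists were chosen with earlier results of these data known. The procedure was tested on simulated data with 200 changed probes, normal noise and an effect of the number. The simulation held no mislabeled arrays, outlying arrays or effects of chip position, so it does not bear on these. The number of arrays limits the precision. Alternatives were other array sets, no block, quantile and median scaling, a filter on dim probes, an intensity trend, the methods' test and leaving out arrays. Tables and figures were made with Python 3.11.15, pandas 2.3.3 and matplotlib 3.10.9.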

Additional observations from a re-analysis of the deposited data

Results flagged for a closer look

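In neuron groups of 4, vehicle 3 (10.03) and dexamethasone 3 (9.43) were past Dixon's critical value in the mean over the rising probes. Vehicle 3 (9.38) was also past it in the mean over the falling probes (ratios of 0.978, 0.958 and 0.947). The 6 neuron groups were examined on both means, which gave 12 ratios, and astrocyte groups were not examined. Aldosterone 3 had a ratio of 0.773 over the rising probes and was not past it. Chance marks about 1 in 20 groups where the measure is independent of the arrays. That rate does not apply here, since these arrays were left out for such values and the probes were chosen on the other arrays, so the ratios are a description. The cause was not tested.

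The effect of dexamethasone differed between cell types past FDR 0.01 for 34 of the 65 genes that the naming rule gives, of which 18 had passed in neurons. Astrocytes minus neurons, the log2 difference was 3.72 for Fkbp5, 2.93 for Tsc22d3, 2.79 for Plin4, 1.85 for Per1, 1.56 for Acsl3, 1.48 for Gjb6, 1.42 for Klf9 and 1.26 for Lcn2. It was 0.93 for Hif3a, 0.84 for Pdk4, 0.83 for Spsb1, 0.74 for Gadd45g and 0.63 for Smox, all with the larger rise in astrocytes. Gjb6, Plin4 and Lcn2 were near background in vehicle neurons (means of 6.86, 6.94 and 6.70) and Hif3a in vehicle astrocytes (6.95), so those folds are lower limits and these differences are not exact. Mt1 (-1.33) and Hs3st1 (-0.55) had the larger rise in neurons, with Mt1 near the highest value of the data in vehicle astrocytes. Ccl4 (-1.38) and 2810459M11Rik (-0.94) fell further in astrocytes, and Slc7a11 (0.71) fell in neurons and had 0.04 in astrocytes. The other 16 genes did not pass in neurons. The difference was 3.01 for Errfi1, 2.29 for Slc45a3, 1.89 for Jaml, 1.81 for Arrdc2, 1.56 for Ada, 1.35 for Sgk1, 1.21 for Bcl2l1 and 1.14 for Zbtb16. It was 1.08 for Zfp36, 1.01 for Trp63, 0.82 for Cdkn1a and 0.71 for Nfkbia, and it was -2.06 for Cxcl10, -1.11 for Il1b, -0.87 for Tnf and -0.76 for Tlr2. Cxcl10, Il1b and Tnf were near background in vehicle neurons (means of 6.81, 6.85 and 6.86), where a fall could hardly be seen. Slc45a3, Jaml and Trp63 were near background there too (7.19, 7.22 and 6.85). The differences of all of these genes are not exact.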

How the results depend on the processing

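The 100 calls at FDR 0.01 (78 rises, 22 falls) became 51 (42 and 9) without the replicate block, all 51 among the 100, and 0 (0 and 0) with all 24 neuron arrays under the labels as given (3206 probes at an unadjusted p under 0.05) and with the methods' test (2061). At FDR 0.2 the 284 calls became 125, 14 and 6 under these 3 settings. Leaving out 1 array of the comparison gave 62 to 78 calls (52 to 59 rises, 10 to 19 falls; 182 to 253 at FDR 0.2). Leaving out a number in all groups gave 48 (40 and 8; 132 at FDR 0.2) without number 1, 67 (51 and 16; 223) without number 2 and 38 (32 and 6; 116) without number 4. The 731 probes with a difference between cell types became 444 without the block and 567 to 613 without 1 array. With 6 arrays alone, 46 arrays, quantile or median scaling, the filter on dim probes or an intensity trend, 97 to 114 probes were called, 86 to 99 of them among the 100. Of 39 glucocorticoid receptor targets, 18 rose in the main comparison, 0 under the labels as given, 0 with the methods' test and 14 to 16 on leaving out arrays or numbers. Their median of 0.51 became 0.30 under the labels as given, 0.36 over all probes of a gene and 0.47 to 0.52 on leaving out arrays or numbers. None of the 38 named genes past the threshold changed direction under any alternative run. For each of them the treated arrays lay wholly on 1 side of the vehicle arrays, and several alternatives leave the fold change as it is. The unchanged direction therefore follows largely from the choice of genes and does not test the calls. Of these 38, 15 lost the call without the block. Bcl6, Mt2, Gadd45b, Acsl3, Gadd45g, Per1, Cx3cr1, Ccl4, Irf1 and Sesn1 kept it in only 5 to 8 of 17 alternatives that left out vehicle 3 and dexamethasone 3. The 61.1% of probes with a mean under 7.5, Nr3c1 among them, limit what can be seen.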
